A study of Mus musculus with 4 samples.

Results

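The 32 genes described here encode the enzymes that build cholesterol and fatty acids, together with the proteins that sense sterols and switch these enzymes on. They were chosen by name, whatever their signal, and all 32 were found among the 31806 gene names that had a value on every array. All 32 were well above background on all 4 arrays, so none was lost to a filter on dim signals. They fall into 7 genes of the mevalonate steps, 11 of the squalene and sterol steps, 6 regulators or sterol carriers, and 8 of the fatty acid steps.

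Total RNA of mouse embryonic fibroblasts (MEFs), which are cells grown out from minced embryos, was labelled with Cy3 and hybridised to single-color Agilent arrays with 1 array per group. The DKO array holds RNA of CycG1-/-CycG2-/- MEFs and its WT array RNA of CycG1+/+CycG2+/+ MEFs. The other pair is labelled G2KO (CycG2-/-) and WT (CycG2+/+). All MEFs came from embryos of C57BL/6J background, were in logarithmic growth and grew in medium with 10% serum, in which lipoproteins also supply sterols. Each array stands for 1 MEF preparation, and how many embryos entered it is not given in the sources used here. No ratio therefore has a replicate check, and every difference is given as a value, called when it was at least 2-fold (a log2 ratio of 1 or more in size). Each signal is given as a multiple of its array's 75th percentile. They compare arrays for the same gene, and probes of different genes are not set against each other.

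Cholesterol synthesis starts from acetyl-CoA. The mevalonate steps join it into isoprene units, the next enzymes link these into squalene, and the sterol steps close and trim the rings. Transcription of these genes is governed by SREBP proteins, encoded by Srebf1 and Srebf2. When sterols are scarce, Scap escorts the SREBPs to the Golgi, where proteases release their active part. When sterols are plentiful, Insig proteins hold Scap in the endoplasmic reticulum. SREBP-2 acts mainly on the cholesterol genes and SREBP-1c mainly on the fatty acid genes, and promoters of both kinds often pair the SREBP site with sites for NF-Y and Sp1.

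The arrays were read first for the genes targeted in the mice and for cell type markers. Ccng1 was not well above background in DKO MEFs, at least 228-fold lower than in their WT. It stood at 1.66 in the WT of DKO, 1.97 on the array labelled G2KO and 9.43 on the array labelled WT, so the array labelled G2KO was near the WT of DKO. Ccng2 was well above background on all 4 arrays (0.0616 to 0.104), so that probe gave no check of the CycG2 genotype, and directions in the pair labelled G2KO rest on the labels alone. The study lists En2, Foxa2 and Sox2 as higher and Pdgfra as lower in G2KO MEFs than in WT. Here those directions were opposite. On the array labelled G2KO, En2 was 568-fold, Foxa2 at least 374-fold and Sox2 at least 360-fold lower than on the array labelled WT, and Pdgfra at least 244-fold higher. Other genes of the study's list are not compared here. The study describes dye-swapped arrays for its G2KO comparison, whereas these are single-color. The direction of the pair is therefore not settled, and the main counts that rest on it are also given with its labels exchanged, a setting added after seeing the data. Other results that join or compare WT arrays, among them the mean of both WT arrays and the fit described under processing, follow the labels as given. The comparison of DKO with its own WT does not use this pair. Of 9 mesothelial markers all 9 were at least 2-fold higher in DKO than in its WT, and their summed signal was 147 in DKO and 0.608 to 1.70 elsewhere. Sums over markers serve only to compare arrays. Msln was 99.8 in DKO and 0.490 to 1.52 elsewhere, and Krt18 was 24.6 in DKO and 0.00673 to 0.0338 elsewhere, dim on 2 of those arrays. Of 9 fibroblast markers, 5 were at least 2-fold lower in DKO and 1 higher, and the summed signal was 152 to 344 over the 4 arrays. On the array labelled WT, 7 of these 9 were at least 2-fold lower than in the WT of DKO and 6 of 9 lower than on the array labelled G2KO, although Col1a1 and Col1a2 differed by less than 2-fold in both pairs. Summed neural progenitor markers were 47.5 on the array labelled WT and 1.11 to 5.14 on the others. Nes (27.9) and En2 (14.7) were the brightest of them on the array labelled WT. Pax6 went the other way and was well above background only on the array labelled G2KO (0.0159). Proliferation markers were also highest on the array labelled WT, at 124, against 71.1 on the array labelled G2KO, 39.3 in the WT of DKO and 30.2 in DKO. Adipocyte markers summed to 0.919 to 1.86, with Adipoq and Cd36 dim on all arrays. Single adipocyte markers differed more than this sum. On the array labelled WT, Lpl was 0.0164 (0.107 to 0.539 elsewhere) and Fabp4 0.0201 (0.164 to 0.341 elsewhere), whereas Cebpa, Plin1 and Cidec were highest there. Endothelial markers summed to 3.07 to 4.42, macrophage markers to 0.587 to 0.768 and hepatoblast markers to 0.0180 to 0.0888, with Alb and Ttr dim throughout. In whole cultures, fewer cells of a type and less RNA per cell cannot be told apart, and the part of cell makeup in the results that follow was not tested.

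The signals of the 32 genes stayed within 4-fold over the arrays. From the lowest to the highest array, 17 of them spanned less than 2-fold, 15 between 2-fold and 4-fold, and 0 more. The median span was 1.87-fold, beside 1.74-fold over all genes well above background on every array. Over the 32 genes the SD of log2 ratios was 0.80 between DKO and its WT, 0.52 in the pair labelled G2KO, and 0.72 between the arrays labelled WT. Over all 19466 genes well above background throughout, the SDs were 1.04, 0.88 and 1.02 in the same order. The SD between arrays that share a WT label was thus close to that between DKO and its WT. With the labels of the G2KO pair exchanged, the WT arrays would be the WT of DKO and the array labelled G2KO. The SD between these was 0.43 over the 32 genes and 0.54 over all genes, well below that between DKO and its WT.

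**Figure D1:**
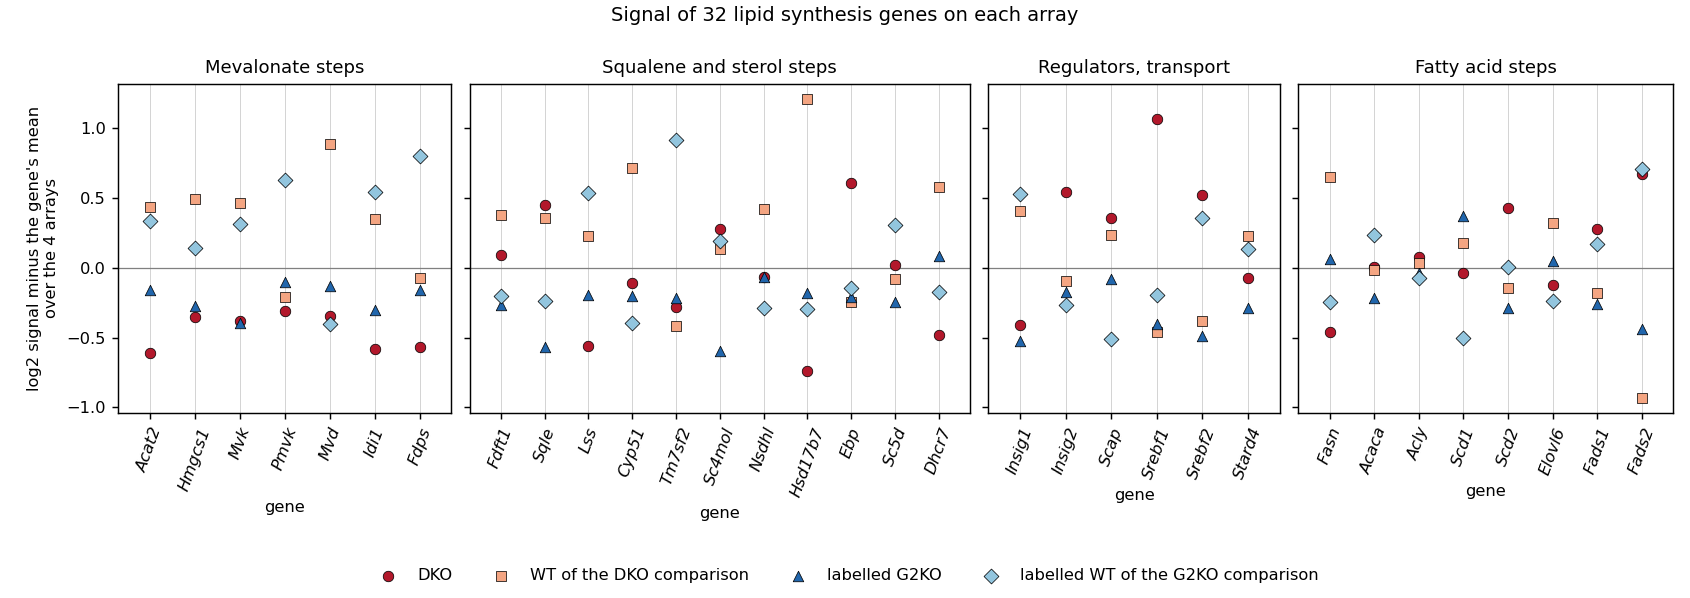
Signal of each of the 32 genes on the 4 arrays, as the log2 signal minus the gene's own mean over the 4 arrays (vertical axis), with genes grouped by role along the horizontal axis and 1 point per array. Both knockout-labelled arrays lie below both WT arrays for 5 of the 7 mevalonate genes with the labels as given (1 of 7 with the G2KO pair exchanged), the DKO point stands alone at the top for Srebf1, and the WT of DKO stands alone at the top for Hsd17b7.

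The mevalonate genes were lower in DKO than in its WT. All 7 had a negative log2 ratio, with a median of -0.85 (1.80-fold lower), beside a median of 0.03 over all 22876 genes with a ratio, of which 47.6% were lower. Only Acat2 and Mvd passed 2-fold. On the array labelled G2KO, 6 of the 7 were lower than on the array labelled WT, with a median of -0.71, but there the median over all genes was -0.17 and 60.7% of genes were lower.

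Acat2, which joins 2 acetyl-CoA molecules, had a signal of 0.152 in DKO and 0.313 in its WT, 0.207 on the array labelled G2KO and 0.292 on the array labelled WT. Its knockout-labelled arrays thus lay below both WT arrays, and DKO was 2.06-fold lower than its WT. Hmgcs1, the HMG-CoA synthase that takes the next step, had signals of 6.32 in DKO, 11.35 in its WT, 6.68 on the array labelled G2KO and 8.90 on the array labelled WT. DKO was 1.80-fold below its WT. Mvk, the kinase that first phosphorylates mevalonate, stood at 5.42 in DKO and 5.38 on the array labelled G2KO, against 9.73 and 8.79 on their WT arrays. The knockout-labelled arrays were nearly level for Mvk, as were the WT arrays. Idi1, which turns one isoprene unit into its isomer, measured 3.39 in DKO, 6.45 in its WT, 4.11 on the array labelled G2KO and 7.40 on the array labelled WT. Fdps, which joins isoprene units into farnesyl diphosphate, measured 11.45 in DKO, 16.2 in its WT, 15.25 on the array labelled G2KO and 29.6 on the array labelled WT. Here the array labelled WT was far above the other 3, which differed by less.

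Pmvk and Mvd did not follow this order. Pmvk, the second mevalonate kinase, was 4.495 in DKO, 4.82 in its WT, 5.18 on the array labelled G2KO and 8.59 on the array labelled WT, so that DKO and its WT were nearly equal. Mvd, the decarboxylase that ends this stretch of the pathway, was 0.632 in DKO, 1.48 in its WT, 0.736 on the array labelled G2KO and 0.608 on the array labelled WT. The WT of DKO alone was high, and DKO was 2.35-fold below it but level with the array labelled WT. Set against that other WT array, 6 of 7 mevalonate genes were still lower in DKO, with a median log2 ratio of -0.93 (Idi1 at -1.13, Fdps at -1.37 and Mvd at 0.06), where 55.2% of all genes were lower. Both sets of ratios share the DKO array. In the reverse arrangement, the array labelled G2KO was below the WT of DKO in 6 of 7, with a median of -0.65, where 58.6% of all genes were lower. Between the WT arrays themselves, 3 of 7 were lower in the WT of DKO, as were 55.5% of all genes. If the labels of the G2KO pair were exchanged, the other WT array of DKO would be the one labelled G2KO. DKO was below it in 6 of 7 as well, but with a median of only -0.22, beside 0.14 over all 23799 genes with a ratio, of which 42.6% were lower.

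For Acat2, Hmgcs1, Mvk, Idi1 and Fdps both knockout-labelled arrays therefore lay below both WT arrays. This was so for 15.2% of all genes well above background on every array, and for 8 of the 32 genes (25%), the others being Lss, Insig1 and Stard4. In none of the 32 did both knockout arrays lie above both WT arrays, which held for 7.26% of all genes. Both statements turn with the labels of the G2KO pair. With these exchanged, none of the 5 mevalonate genes just named, nor Lss, Insig1 or Stard4, had both knockout arrays below both WT arrays. Instead 6 of the 32 genes did (18.8%, beside 17% of all genes): Mvd, Hsd17b7, Dhcr7, Fasn, Scd1 and Elovl6. Another 9 (28.1%, beside 24%) had both above, namely Sc4mol, Ebp, Sc5d, Srebf1, Srebf2, Acaca, Scd2, Fads1 and Fads2.

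The stretches upstream of the transcription start of 5 of these genes are shown because their mRNAs moved together (Hmgcs1, Mvk, Idi1 and Acat2) or differed most between DKO and its WT (Hsd17b7). They are RefSeq sequence of the GRCm38.p6 assembly, 160 bases ending at the base before the start, written 5′ to 3′ on the strand of the gene. Capitals mark TCACNCCAC (a core of the SREBP site), CCAAT (the NF-Y box) and GGGCGG (the GC box bound by Sp1) on either strand, and none of the marked letters belongs to more than 1 motif.

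Hmgcs1 (chr13:119690191-119690350, strand +): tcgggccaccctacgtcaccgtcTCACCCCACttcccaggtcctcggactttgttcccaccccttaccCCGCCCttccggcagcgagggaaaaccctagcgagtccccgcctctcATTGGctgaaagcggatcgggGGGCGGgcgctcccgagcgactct
Mvk (chr5:114444109-114444268, strand +): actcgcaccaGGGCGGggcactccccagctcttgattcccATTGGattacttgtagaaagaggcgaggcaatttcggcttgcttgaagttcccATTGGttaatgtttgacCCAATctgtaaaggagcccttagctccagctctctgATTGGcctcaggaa
Idi1 (chr13:8885446-8885605, strand +): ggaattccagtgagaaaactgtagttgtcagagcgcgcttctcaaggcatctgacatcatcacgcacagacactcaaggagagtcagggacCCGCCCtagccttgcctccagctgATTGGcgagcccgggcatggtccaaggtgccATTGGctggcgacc
Acat2 (chr17:12960726-12960885, strand -): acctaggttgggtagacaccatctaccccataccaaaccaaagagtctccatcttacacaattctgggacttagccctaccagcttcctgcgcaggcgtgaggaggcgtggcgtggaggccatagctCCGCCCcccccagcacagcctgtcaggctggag
Hsd17b7 (chr1:169969206-169969365, strand -): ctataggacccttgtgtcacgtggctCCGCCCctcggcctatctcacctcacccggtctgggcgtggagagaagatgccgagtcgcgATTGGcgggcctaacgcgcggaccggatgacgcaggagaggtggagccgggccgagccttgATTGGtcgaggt

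Of the 32 genes, 25 had a promoter of this table, taken from 250 bases before to 50 after the start. CCAAT occurred in 20 of the 25 genes (80%), beside 41.1% of 27025 genes with a promoter in the table, and in all 9 genes of the sterol steps that had one. GGGCGG occurred in 21 (84%), beside 38.2%. TCACNCCAC was found in Hmgcs1 alone (4% of the 25, beside 1.44%), 137 bases before the start, where the capitals show it ahead of a GC box. The printed stretch of Acat2 holds no CCAAT, and that of Mvk holds 4. In the fatty acid steps, 2 of 5 genes with a promoter held CCAAT and 2 of 5 GGGCGG. Fdps, Fdft1, Sqle, Stard4, Scd1, Scd2 and Fads1 were not analysed here for motifs. These matches describe letters only, and binding was not measured. The 27025 genes were not limited by their signal on these arrays, whereas all 25 were well above background, so the sets are unlike.

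Genes of the squalene and sterol steps showed no common direction in DKO. Of 11, 5 were higher and 6 lower than in their WT (median log2 ratio -0.29), where 47.6% of all genes were lower. By at least 2-fold, 2 were lower and 0 higher, beside 9.63% and 10.6% of all genes. Hsd17b7, a keto-reductase of sterol demethylation, had the widest span of all 32 genes. Its signal was 0.463 in DKO, 0.682 on the array labelled G2KO, 0.629 on the array labelled WT and 1.78 in the WT of DKO (probe at chr1:171883182-171883241 of mm9). The WT of DKO stood apart from the other 3 arrays, which makes DKO 3.85-fold lower than its own WT but only by a log2 ratio of -0.44 than the other WT. A second probe of Hsd17b7 gave a log2 ratio of -1.51 in place of -1.945. Dhcr7, which takes the last step to cholesterol, was also highest in the WT of DKO, at 0.592, but its signals were graded. It measured 0.420 on the array labelled G2KO, 0.352 on the array labelled WT and 0.284 in DKO. Cyp51, the lanosterol demethylase, was likewise highest in the WT of DKO, at 1.71 against 0.794 to 0.967 on the other arrays.

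Lss, which folds the squalene chain into the first sterol, was the one gene of this group with both knockout-labelled arrays below both WT arrays. It measured 0.493 in DKO and 0.635 on the array labelled G2KO, below 0.852 and 1.05 on their WT arrays. Its log2 ratios were -0.79 in DKO and -0.73 in the pair labelled G2KO. Ebp, a sterol isomerase encoded on the X chromosome, went the other way: 21.8 in DKO against 12.05 in its WT, 12.35 on the array labelled G2KO and 12.9 on the array labelled WT. DKO alone was high there, 1.81-fold above its WT, while the other 3 arrays agreed closely. Sqle, the squalene epoxidase often described as a control point of the pathway, measured 15.02 in DKO, 14.1 in its WT, 7.44 on the array labelled G2KO and 9.34 on the array labelled WT, so the arrays separated by comparison and not by genotype. Tm7sf2, a sterol reductase, was 2.43 on the array labelled WT and 0.964 to 1.11 on the others, and both its probes showed this. Fdft1, Sc4mol, Nsdhl and Sc5d, which make squalene or trim the sterol, had log2 ratios between -0.49 and 0.14 in DKO and between -0.78 and 0.22 in the pair labelled G2KO.

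**Figure D2:**
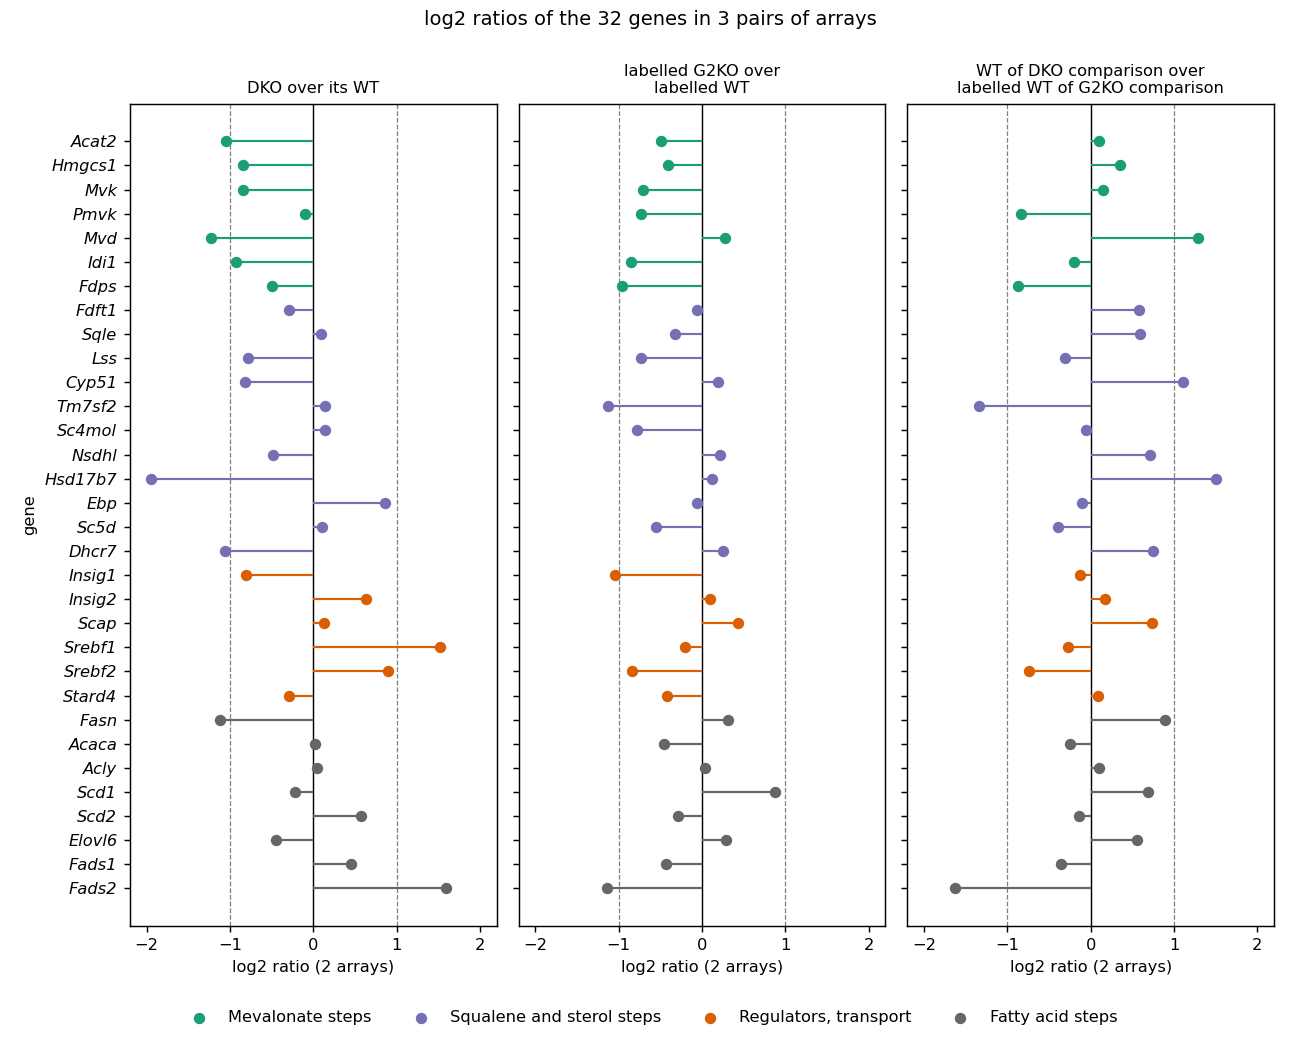
log2 ratio of each of the 32 genes (rows, colored by role) in 3 pairs of arrays: DKO over its WT, the array labelled G2KO over the array labelled WT, and the WT arrays against each other, with dashed lines at 2-fold. All 7 mevalonate genes lie left of 0 in DKO, and the arrays labelled WT differ from each other by up to a log2 ratio of -1.63 (Fads2).

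Among the regulators, Srebf1, which encodes the SREBP-1 proteins, was higher in DKO than on every other array. Srebf1 (probe at chr11:60012664-60012723 of mm9) had a signal of 0.300 in DKO, 0.105 in its WT, 0.109 on the array labelled G2KO and 0.126 on the array labelled WT. The 3 other arrays lay close together and DKO stood above all of them, 2.87-fold above its WT (log2 ratio 1.52) and by a log2 ratio of 1.255 above the other WT array. Of the 32 genes, Srebf1 was the only one in which DKO was at least 2-fold from both WT arrays in the same direction. Among all genes well above background on every array, 8.78% met that condition. With the labels of the G2KO pair exchanged, Srebf1 and Fads2 met it, as did 11.6% of all genes, and Srebf1 in DKO was above the array labelled G2KO by a log2 ratio of 1.46. Srebf1 has 1 probe on the array, so no second probe bears on its value.

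Srebf2 was 1.23 in DKO and 0.660 in its WT, a ratio of 1.87-fold, but 1.1 on the array labelled WT and 0.612 on the array labelled G2KO. Its signals thus formed a high pair (DKO and the array labelled WT) and a low pair, and a second, dimmer probe gave nearly the same ratio (log2 0.86 beside 0.90). Scap, the SREBP escort, differed little between DKO (13) and its WT (11.9) and was 9.59 on the array labelled G2KO and 7.14 on the array labelled WT. Insig1, which retains Scap and is itself an SREBP target, was 0.244 in DKO and 0.226 on the array labelled G2KO, against 0.428 and 0.467 on their WT arrays. Both knockout-labelled arrays were low, with log2 ratios of -0.81 and -1.05 to their own WT. Insig2, a related protein that also retains Scap, was highest in DKO at 2.91 and between 1.66 and 1.88 elsewhere. Stard4, a carrier of cholesterol between membranes, spanned 1.43-fold in all. Its second probe differed from the first by 0.73 in the log2 ratio of the arrays labelled WT, the largest disagreement among the genes with several probes.

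Fatty acid genes were divided as well, with 5 of 8 higher and 3 lower in DKO (median log2 ratio 0.04), where 47.6% of all genes were lower. Fads2, the delta-6 desaturase, had signals of 1.82 in DKO and 1.87 on the array labelled WT, but 0.602 in the WT of DKO and 0.845 on the array labelled G2KO (probe at chr19:10137760-10137819 of mm9). DKO was 3.02-fold above its WT, and the array labelled G2KO 2.21-fold below the array labelled WT. The arrays labelled WT differed from each other in Fads2 by a log2 ratio of -1.63, so the direction in DKO depended on the WT array, and against the other one the log2 ratio was -0.04. Against the array labelled G2KO it was 1.11. A second Fads2 probe gave log2 ratios of 1.23 in DKO and -0.84 in the pair labelled G2KO. Its neighbour Fads1, the delta-5 desaturase, moved the same way by less, at 3.50 in DKO, 2.55 in its WT, 2.41 on the array labelled G2KO and 3.25 on the array labelled WT.

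Fasn, the fatty acid synthase, was 0.493 in DKO, 1.07 in its WT, 0.709 on the array labelled G2KO and 0.573 on the array labelled WT. Again the WT of DKO was the highest array, and DKO was 2.165-fold below it, with a log2 ratio of -0.22 to the other WT. Scd1, a stearoyl-CoA desaturase, was lowest on the array labelled WT at 1.83 and between 2.52 and 3.35 on the others. Scd2, the related desaturase of many non-liver tissues, was highest in DKO at 44.9, against 27.3 to 33.35. Acly, which supplies acetyl-CoA from citrate, was the steadiest of the 32 genes, at 12.7 to 14.1 on all arrays. Acaca, which makes malonyl-CoA, spanned 1.37-fold and Elovl6, which lengthens palmitate, 1.475-fold.

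The share of the 32 genes that differed at least 2-fold was close to that of all genes in DKO and numerically below it in the other pairs, a difference that was not tested. The sets are unlike: all genes include 2221 to 2877 per pair that were dim on an array of the pair, and none of the 32 was. Between DKO and its WT, 7 of 32 (21.9%) differed at least 2-fold, beside 20.3% of 22876 genes. Of these, 5 were lower (15.6%, beside 9.63%): Acat2, Mvd, Hsd17b7, Dhcr7 and Fasn. The other 2, Srebf1 and Fads2, were higher (6.25%, beside 10.6%). In the pair labelled G2KO, Tm7sf2, Insig1 and Fads2 were lower and 0 higher (9.38%, beside 17.1% of 22790 genes in either direction, 8.39% lower and 8.73% higher). In that pair 21 of the 32 were lower and 11 higher, a split that turned to 11 lower and 21 higher when the arrays were not scaled, as the median of all genes moved by 0.50 (log2). Between the arrays labelled WT, 5 of 32 (15.6%) differed, beside 21.6% of 22139 genes: Mvd, Cyp51 and Hsd17b7 were higher in the WT of DKO (11.6% of all genes were), and Tm7sf2 and Fads2 lower (9.93%). Of the 7 genes past 2-fold in DKO, 3 (Mvd, Hsd17b7 and Fads2) were thus also past 2-fold between the arrays labelled WT. These pairs share the WT of DKO, so an extreme signal there enters both ratios. The share of all genes past 2-fold in both pairs was not counted. With the labels of the G2KO pair exchanged, the WT pair would be the array labelled G2KO and the WT of DKO. There 2 of the 32 genes passed 2-fold, Hsd17b7 and Mvd, beside 9.18% of all genes, and Fads2 did not.

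**Figure D3:**
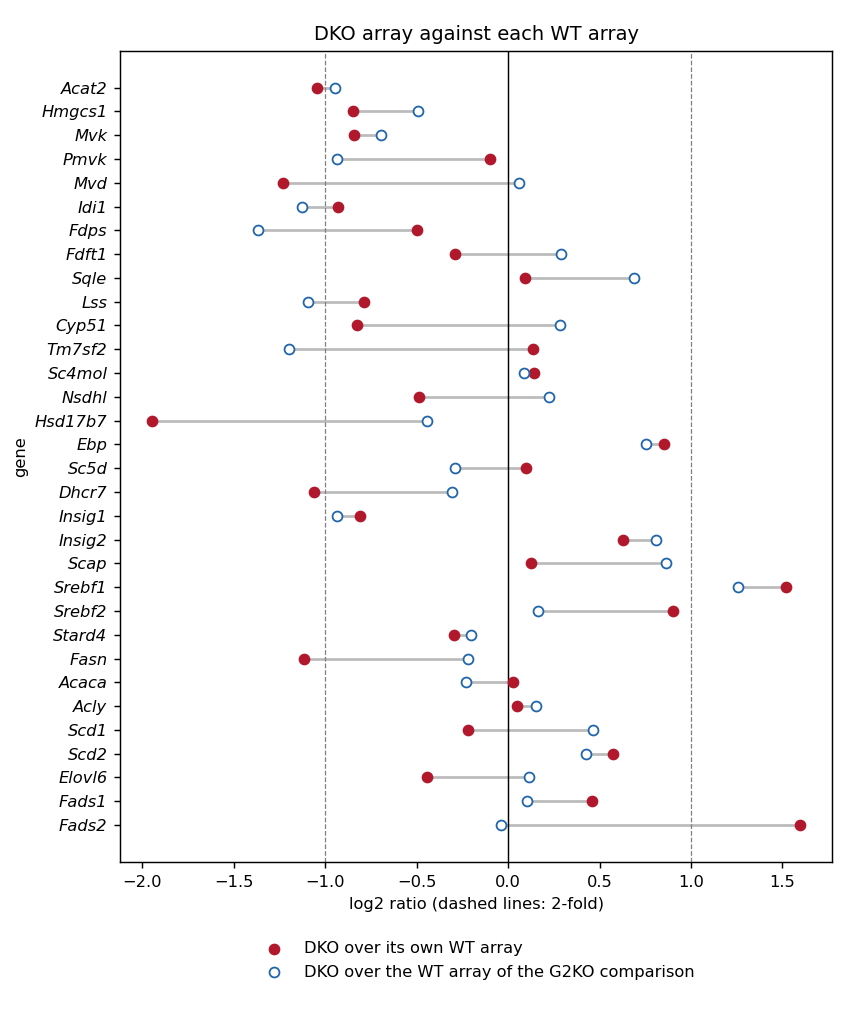
log2 ratio of the DKO array to its own WT array (filled) and to the WT array of the G2KO comparison (open) for each of the 32 genes, with dashed lines at 2-fold. The points lie close together for Acat2, Mvk, Insig1, Ebp and Srebf1 and far apart for Mvd, Cyp51, Tm7sf2, Hsd17b7 and Fads2, and Srebf1 alone has both points beyond the same dashed line.

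**Figure D4:**
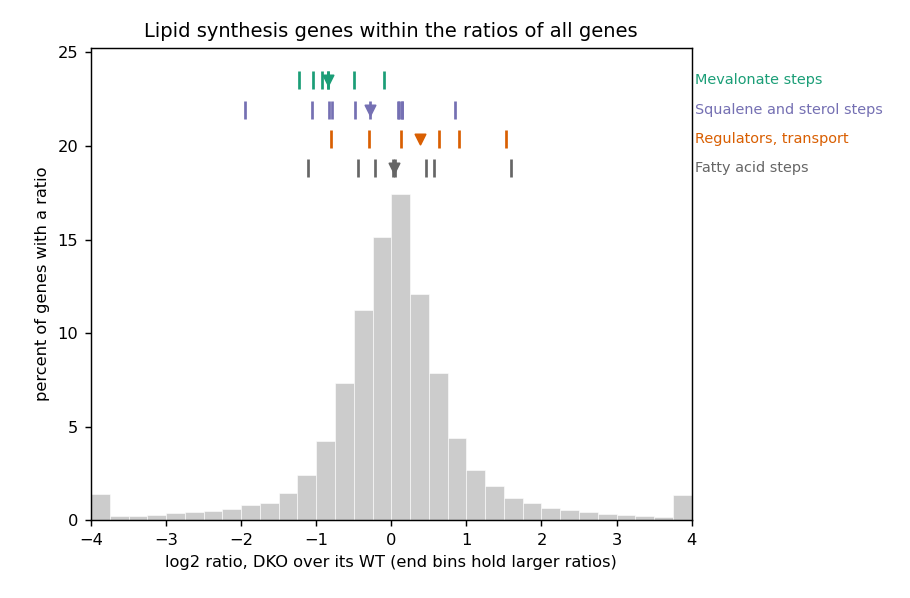
Distribution of log2 ratios of DKO to its WT over 22876 genes (grey bars, percent of genes per bin), with the genes of each role as ticks and their median as a triangle. The mevalonate median of -0.85 lies left of the bulk of genes, that of the sterol steps at -0.29, and those of the regulators (0.38) and fatty acid steps (0.04) at or right of 0.

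Other genes of lipid supply, which are not among the 32, were read from lists. Of 23 further genes of sterol and fatty acid metabolism, 21 had a ratio in DKO, 3 at least 2-fold higher and 1 lower (median log2 ratio -0.12), where 10.6% of all genes were higher and 9.63% lower. The largest were Elovl7, an elongase (2.80 in DKO and 0.281 in its WT, 0.349 and 0.436 on the pair labelled G2KO and WT), Lpin1, a phosphatidate phosphatase (log2 ratio 1.44), and Acsl1, an acyl-CoA ligase (-1.125). Among 4 genes of SREBP processing found by name, Mbtps2, the protease that makes the second cut in SREBPs, was 0.348 in DKO and 0.131 to 0.154 on the other arrays, 2.66-fold above its WT. Rnf139, a ubiquitin ligase of the endoplasmic reticulum, had a log2 ratio of 0.25. For Mbtps2, as for Srebf1, DKO alone was high.

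Of 17 genes of sterol sensing, export and uptake, 16 had a ratio in DKO, 4 at least 2-fold higher and 3 lower (median log2 ratio 0.335), beside the same 10.6% and 9.63% of all genes. Nr1h3, the oxysterol receptor LXR alpha, was 0.360 in DKO and 0.0231 to 0.0249 on the other arrays, 15.6-fold above its WT. Mylip, the ubiquitin ligase that removes lipoprotein receptors and is itself an LXR target, was 0.218 in DKO, 2.03 in its WT, 1.15 on the array labelled G2KO and 0.932 on the array labelled WT. Lrp8, a receptor of the same family, was 0.169 in DKO and 0.535 to 0.690 elsewhere. For all 3 the DKO array lay outside the range of the others. Whether these differences follow genotype or the makeup of the DKO culture cannot be told apart with 1 DKO array.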

How the data were processed

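The authors deposited 1 scanner file per array, written by Agilent's Feature Extraction software, whose version is 10.7.3.1 per the file headers and 10.5.1.1 in the submitters' processing notes. Its signal intensity is corrected by the software for background and spatial trends within the array and not scaled between arrays. The deposited value table gave identical intensities (largest difference 0). From these, control spots and spots marked as outliers were left out (107 to 140 per array), each array's log2 75th percentile (1589 to 2242 as a signal) was subtracted from its log2 signals, and spots of a probe were averaged. For a gene with several probes, the one with the highest mean log2 signal was used. Ratios were taken where at least 1 of both arrays was well above background. Where the other was dim, the ratio is a lower limit, taken against the higher of the probe's own signal and the lowest signal well above background. No member spot was saturated.

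Coordinates of probes come from the files (mm9), and promoter sequences those of RefSeq on GRCm38.p6, matched by transcript or symbol. The median SD between repeat spots was 0.0752 to 0.122 (log2) per array. The highest of these medians gives a ratio an error of 0.172, which is a typical value and not an upper limit. The number of arrays limits the precision beyond that. Of 32 members, 12 have several probes, and 35 of 42 ratios of second probes had the same sign as the probe used.

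All members were named in the text, of other pathway lists the 3 largest log2 ratios in DKO measured on both arrays (1 of these is not reported here), and of marker lists the brightest genes. The members and lists were chosen with earlier results of these data known. A limma fit (version 3.58.1, R 4.3.3) across all genes, with both arrays labelled WT as 1 group, has 1 residual degree of freedom. It called 0 of 30344 probes at an adjusted p of 0.05 for either knockout, with 474 (labelled G2KO) and 2491 (DKO) below 0.05 before adjustment, and 0 members by either count. The ratios and the fit were run on simulated data with large added shifts and noise far below the SD between these arrays. This checks the calculation only, and not how well differences are found in these data. Alternatives were other background correction (normexp, offset 50), scaling, filters, probe choice, WT array and fold thresholds. Python 3.11.15, pandas 2.3.3 and numpy 2.4.6 were used.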

Additional observations from a re-analysis of the deposited data

How the results depend on the processing

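Every result rests on 1 array per group, so none of these settings measures the error between cultures. With the other WT array as control, the log2 ratio in DKO turned to 0.057 for Mvd and to -0.037 for Fads2, and in the array labelled G2KO to 0.21 for Tm7sf2 and 0.49 for Fads2, while the median over the 32 genes in DKO became 0.01. Against the mean of both arrays labelled WT, 3 of the 32 genes differed at least 2-fold in DKO (22.6% of all genes did) and 0 on the array labelled G2KO (8.96%). At 1.5-fold the counts were 16 in DKO, 11 on the array labelled G2KO and 14 between the WT arrays, beside 38.1%, 37.5% and 40.6% of all genes, and at 4-fold 0 in each pair, beside 8.07%, 5.72% and 7.37%. Without scaling, which moves the median of all genes in the pair labelled G2KO by 0.50, that pair had 1 gene past 2-fold (20.6% of all genes), a median of 0.125 over the 32 genes and of -0.21 over the mevalonate genes. Relative to all genes, the mevalonate median was -0.53 with scaling and -0.54 without. With the labels of that pair exchanged, 9 in place of 0 genes had both knockout arrays above both WT arrays (24% in place of 7.26% of all genes). Both were below in 6 in place of 8 (17% in place of 15.2%). DKO was at least 2-fold from both WT arrays in the same direction in 2 in place of 1 (11.6% in place of 8.78%). Between the WT arrays, the medians over the 32 genes and over the mevalonate genes were -0.089 and -0.086 with scaling to the median of the array, and both 0.34 without scaling. The split of the 32 genes there was 12 higher and 20 lower, and 22 higher and 10 lower, in place of 17 and 15. All 7 mevalonate genes stayed lower in DKO than in its WT under each background correction, scaling, filter and probe choice tried, with medians from -0.92 to -0.83. The settings for the mevalonate genes alone and the exchanged labels were added after seeing the data. No paired analysis was possible because each group has 1 array and the labels carry no replicate numbers.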

Other observations

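By its label the array labelled G2KO is no control of DKO, but with the labels of its pair exchanged it would be a WT array. Set directly against it, DKO MEFs had 4 of the 32 genes at least 2-fold higher and 0 lower, beside 13.6% and 10% of all 23799 genes with a ratio. These were Srebf1 (log2 difference 1.46), Fads2 (1.11), Sqle (1.01, with signals of 15.02 and 7.44) and Srebf2 (1.01). The SD of the 32 log2 differences was 0.55. Mvk, Nsdhl and Cyp51 were nearly equal on both arrays, with log2 differences of 0.01, 0.00 and 0.09.

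The array labelled G2KO was nearest to the WT of DKO. Over the 32 genes the SD of their log2 differences was 0.43, below the other 5 pairs of arrays (0.52 to 0.80), and over all genes well above background it was 0.54, below 0.88 to 1.17. The array labelled G2KO was lower in 26 of the 32 genes, with a median of -0.37 beside -0.07 over all genes, and 2 genes passed 2-fold, Hsd17b7 (-1.39) and Mvd (-1.01), beside 9.18% of all genes in either direction.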
